A study of Mus musculus with 8 samples.

Results

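Scg2, Scg3, Scg5, Chga, Chgb and Vgf encode granins and granin-like proteins of dense-core vesicles, and Pcsk1, Pcsk2, Cpe and Pam encode the enzymes that turn peptide precursors into active peptides. These 10 genes were taken by symbol from a count table of 43372 gene symbols of mouse sensory neurons from dorsal root ganglia (DRG), which lie beside the spinal cord. All 10 were found, and all 10 passed the expression filter, which left 11828 genes for testing. Their counts ran from 29 to 13745 reads per library.

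The study compared neurons picked from Sst-IRES-Cre mice, given the genotype Ssttm2.1(cre)Zjh/J, with neurons picked from Trpv1-IRES-Cre mice, given the genotype Trpv1tm1(cre)Bbm/J. Cre recombinase is made in these lines wherever the locus of Sst, the somatostatin gene, or of Trpv1, the gene of the heat and capsaicin channel, is active. All mice were C57Bl/6 and received at postnatal day 2 an adeno-associated virus whose fluorescent protein Cre switches on, so both groups carry Cre and virus. The virus was AAV9-CAG-FLEX-eGFP-WPRE in some mice and in others AAV9-CAG-FLEX-tdTomato-WPRE, and which library had which is not given in the labels. Mice of both sexes were used when 3 to 5 weeks old. From each, 150 to 250 labelled cells were hand-picked after dissociation, pooled and amplified, and 4 pools were sequenced for each genotype, below named Sst pools and Trpv1 pools, with 1 library each. A picking session gave 1 pool of each genotype, but the labels do not tie replicate numbers to sessions, so the main fit has no term for session. Cre acts in whichever infected cells use the locus, so a pool need not hold 1 neuron type. A pool gives the mean of its cells, so fewer cells with a transcript and less transcript per cell cannot be told apart.

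Dense-core vesicles carry neuropeptides from the Golgi apparatus to sites of release. Granins gather at the trans-Golgi and help to form the vesicle core, while prohormone convertases cut precursors at pairs of basic residues, carboxypeptidase E trims those residues and peptidylglycine alpha-amidating monooxygenase adds the terminal amide that many sensory peptides need. In DRG neurons such vesicles hold calcitonin gene-related peptide and substance P, among others. The comparison asks whether 2 sets of sensory neuron pools that differ in several peptide precursor transcripts, given below, also differ in transcripts of this machinery.

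Depth was 9021125 to 12153109 counts per Sst pool and 7419027 to 9568508 per Trpv1 pool, and p-values measure the spread between these pools. Of 10 neuronal marker genes, all tested, 1 was higher in the Sst pools (Snap25, log2 fold change 1.02, edgeR adjusted p = 3.63e-05), 0 were lower and 9 did not pass. All 8 peptidergic nociceptor markers were lower in the Sst pools, against 3.31% of all genes tested. Of the markers of myelinated neurons 9 of 10 were higher, against 3.04% of all genes tested. The first of these lists holds Calca, Tac1, Adcyap1 and Gal, which return below as peptide precursors. The genes behind the labels, Sst (log2 fold change 1.07, edgeR adjusted p = 0.0753) and Trpv1 (−0.95, edgeR adjusted p = 0.109), did not pass. Pituitary markers, of which Lhb was at 0 in all libraries, summed to 464.6 CPM (counts scaled to a common library size) in Sst replicate 2 and to 3.88 CPM or less in the other Sst pools. They summed to 1773, 1705 and 1640 CPM in Trpv1 replicates 1, 2 and 3 and to 0 CPM in Trpv1 replicate 4. Satellite glia and Schwann markers summed to 571 to 894 CPM in the Sst and 710 to 1052 CPM in the Trpv1 pools. Xist, which coats the inactive X chromosome, had counts in all Sst pools and in Trpv1 replicates 3 and 4 and 0 counts in Trpv1 replicates 1 and 2. The part of these differences between libraries in the results below was not tested, apart from the fits that leave out the libraries concerned.

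None of the granin and processing genes differed past the threshold, with 0 of 10 called, 0 higher (3.04% of all genes tested) and 0 lower (3.31%), while 6.35% of all genes tested passed in either direction (edgeR quasi-likelihood test, Benjamini-Hochberg adjusted p under 0.05). At an unadjusted p under 0.05 there were 2, Cpe toward the Sst and Scg3 toward the Trpv1 pools, against 20.5% of all genes tested. Fold changes are given as Sst over Trpv1 on the log2 scale, and ran from −0.39 for Scg3 to 0.78 for Cpe, with 5 positive and 5 negative. Their median was −0.02, against 0.01 over all genes tested, and the median size regardless of sign was 0.28, against 0.53. For none of the 10 did the CPM values of the groups stand wholly apart, as they did for 11.1% of all genes tested. DESeq2 called 1 of the 10 genes, Cpe, and 7.63% of all 11828 genes tested, of which it gave an adjusted p to 11260. The fit by limma voom with sample quality weights called 0 of the 10 and 5.32% of all genes tested.

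A missed threshold does not show equal levels, so the 95% intervals are given. edgeR takes part of the spread of each gene from other genes. Intervals can thus be too narrow for genes that varied more than others within 0.5 log2 CPM of the same mean. Within groups the SD of log2 CPM was 1.44 for Scg5 and 0.70 for Chgb, against medians of 0.69 and 0.30 for such genes. In the main fit the 95% interval of the fold change lay within 2-fold either way for 5 genes, Scg2, Scg3, Chgb, Pcsk2 and Pam. For Chgb and Pcsk2 some alternative fits gave values outside that interval. On the log2 scale that of Chgb ran from −0.93 to 0.40. Its value was 0.67 with Xist as a covariate and 0.69 in the 6 libraries with Xist. That of Pcsk2 ran from −0.58 to 0.67, and its value was −0.72 in the 4 libraries with at most 1 count of Gh and of Prl, both pituitary markers. For Scg2 it ran from 0.967-fold to 1.54-fold and for Pam from 0.624-fold to 1.33-fold. The intervals of the other 5 genes, Scg5, Chga, Vgf, Pcsk1 and Cpe, reached beyond 2-fold on one side or both. That of Scg5 was the widest of the 10, from 0.355-fold to 1.74-fold.

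**Figure D1:**
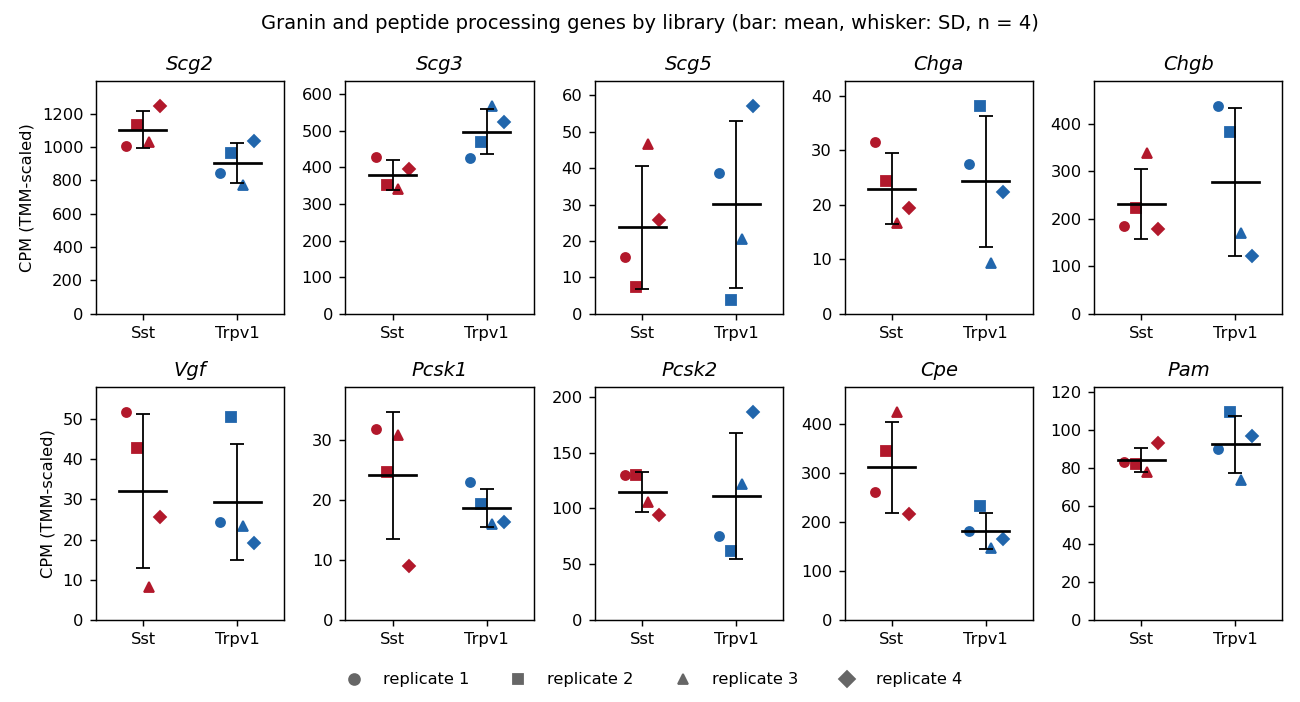
CPM of the 10 genes in each of the 8 libraries, with Sst pools in red and Trpv1 pools in blue, symbols for replicate numbers, bars for means and whiskers for SD (n = 4 each). The groups overlap for every gene; Cpe and Scg3 come nearest to standing apart, and Scg5 spreads from 3.71 to 57.1 CPM.

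Scg2 encodes secretogranin II, the precursor of secretoneurin (GRCm38 chromosome 1, 79434669 to 79440120, minus strand). It was the most abundant of the 10, at 1007, 1135, 1033 and 1247 CPM in Sst replicates 1 to 4, against 846, 966, 771 and 1039 CPM in Trpv1 replicates 1 to 4. The Sst pools lay higher on the whole, but Trpv1 replicate 4 stood above Sst replicates 1 and 3. The log2 fold change was 0.29 (SE 0.163, edgeR adjusted p = 0.336), with the gene at 1105 ± 109 CPM in the Sst pools and 905 ± 120 CPM in the Trpv1 pools (SD, n = 4 each).

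Scg3, secretogranin III, binds cholesterol-rich membrane and other granins at the vesicle membrane (chromosome 9, 75643189 to 75684056, minus strand). It went the other way, at 429.6, 352.5, 341.5 and 396 CPM in the Sst pools and 426.8, 469.7, 568 and 525 CPM in the Trpv1 pools. Only Sst replicate 1 reached into the Trpv1 range, standing just above Trpv1 replicate 1. The log2 fold change was −0.39 (SE 0.185, edgeR adjusted p = 0.238), and it stayed negative in all 19 alternative fits, from −0.52 to −0.32. None of these fits called it.

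Chromogranin A (Chga, chromosome 12, 102554969 to 102565028, plus strand) is the granin first found in adrenal chromaffin cells. It was low in both groups, at 31.5, 24.3, 16.6 and 19.4 CPM in the Sst pools and 27.4, 38.1, 9.27 and 22.3 CPM in the Trpv1 pools. The Trpv1 pools enclosed the whole Sst range, and the log2 fold change was −0.09 (SE 0.457, edgeR adjusted p = 0.938). Chromogranin B (Chgb, chromosome 2, 132781278 to 132795079, plus strand), a related acidic granin, had 184, 222, 338 and 179 CPM in the Sst pools. In the Trpv1 pools it was high in replicates 1 and 2, at 437 and 382 CPM, and low in replicates 3 and 4, at 170 and 121.5 CPM. The 2 high libraries are those without Xist, and both held pituitary transcripts, as did Trpv1 replicate 3. The log2 fold change of Chgb was −0.27 (SE 0.321, edgeR adjusted p = 0.706). With Xist as a covariate the value was 0.67, and it was 0.98 in the 4 libraries with at most 1 count of Gh and of Prl, of which 1 is a Trpv1 library. Chgb was not called with Xist as a covariate (edgeR adjusted p = 0.258). In the fit of 4 libraries the lone Trpv1 library is assumed to vary like the Sst pools.

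Vgf encodes a neurotrophin-induced peptide precursor (chromosome 5, 137026392 to 137033351, plus strand). Its CPM were 51.8, 42.7, 8.25 and 25.8 in the Sst pools and 24.3, 50.6, 23.4 and 19.1 in the Trpv1 pools. Sst replicate 3 was the lowest of all 8, and Trpv1 replicate 2 stood far above the other 3 Trpv1 pools. The log2 fold change was 0.13 (SE 0.477, edgeR adjusted p = 0.914).

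Scg5 encodes 7B2, the chaperone that convertase 2 needs to mature (chromosome 2, 113776362 to 113829121, minus strand). Its counts were 155, 68, 502 and 284 in Sst replicates 1 to 4 and 374, 29, 162 and 538 in Trpv1 replicates 1 to 4. In CPM these were 15.4, 7.41, 46.5 and 25.8 in the Sst pools and 38.7, 3.71, 20.6 and 57.1 in the Trpv1 pools. Both groups thus held low and high libraries, with the lowest value of each group in replicate 2. From the lowest to the highest library Scg5 differed 15.4-fold, and the log2 fold change between groups was −0.35 (SE 0.554, edgeR adjusted p = 0.783).

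Several granin and convertase promoters carry the cAMP response element, the octamer that proteins of the CREB family bind. Sequences around the annotated starts of these genes were searched for it. Windows from 250 bases before to 50 bases after the annotated starts were available from RefSeq (GRCm38.p6) for 8 of the 10 genes, without Vgf and Cpe. The octamer TGACGTCA, which reads the same on both strands, was present for 3 of the 8 genes, Scg2, Chgb and Pcsk1, and in 1.79% of all 32851 windows. The shorter motif TGACG, searched on both strands and contained in the octamer, was present for 7 of the 8 genes and in 20.8% of all windows. The last 150 bases before the start are printed for the 3 genes with the octamer and for Chga, which has the shorter motif alone, so that the place of the element can be compared. Capitals mark these motifs.
Scg2 (chr1:79440027-79440176, minus strand): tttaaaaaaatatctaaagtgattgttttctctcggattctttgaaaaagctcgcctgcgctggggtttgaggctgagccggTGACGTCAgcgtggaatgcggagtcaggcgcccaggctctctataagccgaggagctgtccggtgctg
Chgb (chr2:132781492-132781641, plus strand): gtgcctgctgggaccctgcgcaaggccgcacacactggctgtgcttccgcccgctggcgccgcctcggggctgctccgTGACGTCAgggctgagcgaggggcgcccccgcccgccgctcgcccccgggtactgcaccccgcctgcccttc
Pcsk1 (chr13:75089707-75089856, plus strand): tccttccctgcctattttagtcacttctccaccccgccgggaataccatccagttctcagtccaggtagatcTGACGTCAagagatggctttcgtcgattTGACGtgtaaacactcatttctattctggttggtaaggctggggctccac
Chga (chr12:102554791-102554940, plus strand): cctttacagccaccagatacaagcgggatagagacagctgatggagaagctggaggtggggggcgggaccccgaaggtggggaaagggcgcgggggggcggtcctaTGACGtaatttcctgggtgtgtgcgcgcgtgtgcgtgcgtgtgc
The octamer began 68 bases before the RefSeq start of Scg2, 72 before that of Chgb and 78 before that of Pcsk1. The shorter motif began 44 bases before the RefSeq start of Chga. The coordinates given with each gene are from GENCODE M21 and can differ. There Chgb begins at 132781278, ahead of its printed stretch. Scg2, on the minus strand, begins at 79440120, inside its printed stretch. By those coordinates both octamers lie inside the gene, so the distances hold for the RefSeq starts alone. These 4 genes did not share a direction between the groups, at log2 fold changes of 0.29, −0.27, 0.36 and −0.09. A match of letters is a description and not a bound site.

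Among the enzymes, Pcsk1 and Pcsk2 encode prohormone convertases 1 and 2, which cut precursors inside the vesicle. Pcsk1 (chromosome 13, 75089826 to 75134861, plus strand) had 31.8, 24.6, 30.8 and 8.98 CPM in the Sst pools and 22.9, 19.3, 15.9 and 16.3 CPM in the Trpv1 pools. Sst replicates 1, 2 and 3 lay above all Trpv1 pools and Sst replicate 4 lay below them all, and the log2 fold change was 0.36 (SE 0.469, edgeR adjusted p = 0.734). Pcsk2 (chromosome 2, 143546156 to 143816285, plus strand) had 130, 130, 106 and 94.4 CPM in the Sst pools and 74.9, 62.2, 121.5 and 186 CPM in the Trpv1 pools. The Trpv1 pools were split around the Sst range, with replicates 1 and 2 below it and replicate 4 above it. Its log2 fold change was 0.04 (SE 0.302, edgeR adjusted p = 0.954), and −0.72 in the 4 libraries with at most 1 count of Gh and of Prl (edgeR adjusted p = 0.536).

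Cpe encodes carboxypeptidase E, which removes the basic residues left by the convertases (chromosome 8, 64592542 to 64693054, minus strand). It stood at 259.7, 345, 423 and 215 CPM in the Sst pools, against 181, 232, 147 and 166 CPM in the Trpv1 pools. All Sst pools lay above 3 of the 4 Trpv1 pools, and only Sst replicate 4 lay below Trpv1 replicate 2. Its mean was 310.6 ± 92.4 CPM in the Sst pools and 181 ± 36.6 CPM in the Trpv1 pools (SD, n = 4 each), a 1.71-fold difference with a 95% interval from 1.22-fold to 2.41-fold. The log2 fold change of 0.78 (SE 0.238) missed the threshold by little (edgeR adjusted p = 0.0518). Cpe was called without Sst replicate 4 (log2 fold change 0.92, edgeR adjusted p = 0.0195), without Trpv1 replicate 2 (0.93, 0.0446), with no filter on low counts (0.81, 0.0324), with a filter of at least 5 CPM in 4 libraries (0.77, 0.0400) and with DESeq2 (0.76, 0.0443). These fits called 6.01%, 4.36%, 3.61%, 7.84% and 7.63% of all their genes, in the order given. It stayed positive in all 19 alternatives, from 0.61 to 1.01, with adjusted p from 0.0195 to 0.518.

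Pam encodes the amidating monooxygenase (chromosome 1, 97795114 to 98095646, minus strand). Its levels were 83.5, 82.3, 78.1 and 93.1 CPM in the Sst pools and 90.1, 109.6, 73.7 and 96.9 CPM in the Trpv1 pools. The Trpv1 pools enclosed the Sst range, and all 8 values lay within 1.49-fold of each other. The log2 fold change was −0.14 (SE 0.263, edgeR adjusted p = 0.832).

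**Figure D2:**
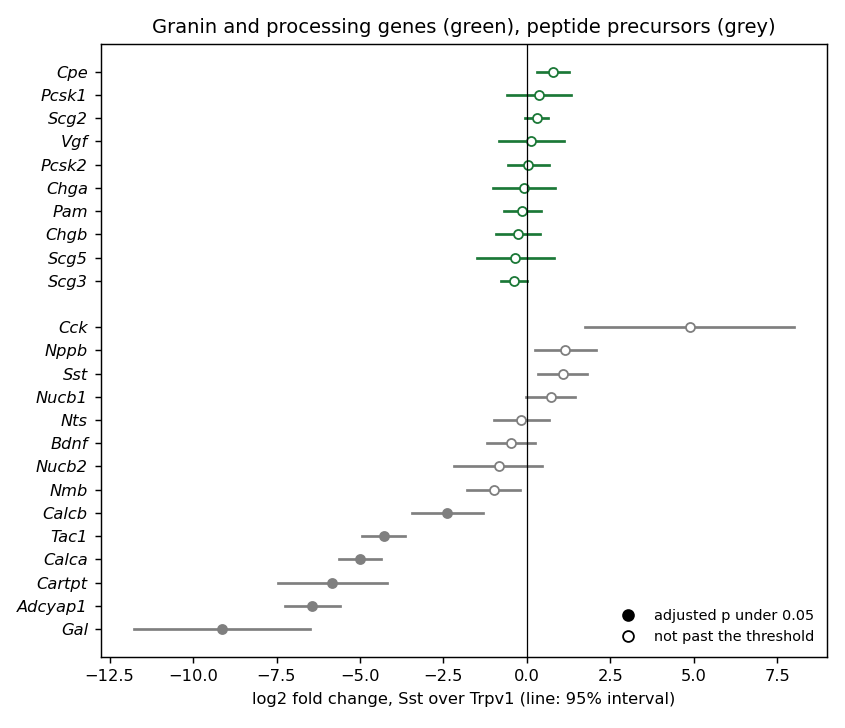
Log2 fold change of Sst over Trpv1 with its 95% interval for the 10 granin and processing genes (green) and the 14 tested peptide precursors (grey), filled where the adjusted p is under 0.05. The green points lie between −0.39 and 0.78 and are all open, while 6 precursors lie at −2.38 or below and are filled, of which Gal rests on 2 counts in the Sst group.

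How steady a transcript was from pool to pool differed between the 10 genes. The SD of log2 CPM within groups was 0.17 for Scg2, 0.17 for Scg3 and 0.18 for Pam. Among genes within 0.5 log2 CPM of the same mean level, 89.3%, 91.4% and 97.8% had a larger SD than these 3 genes. At the other end, Scg5 had an SD of 1.44 and Chgb one of 0.70, where 1.71% and 0.634% of genes of like level had a larger one. Vgf (0.94) and Pcsk2 (0.53) also lay above the median SD of genes of like level, which was 0.63 and 0.38. For Chga (0.67), Pcsk1 (0.62) and Cpe (0.36) the SD lay near that median, at 0.67, 0.69 and 0.30. Scg5 was lowest in replicate 2 of both genotypes, and whether these pools shared a picking session is not given in the labels.

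To compare levels between genes, CPM were divided by the exon length of each gene (GENCODE M21, union of exons). Scg2 led at 439.5 ± 43.3 CPM per kb in the Sst pools and 360 ± 47.6 CPM per kb in the Trpv1 pools (SD, n = 4 each), and it stood above Scg3 in all 8 libraries with no overlap. Scg3 followed at 139 ± 14.9 CPM per kb in the Sst pools and 182 ± 22.7 in the Trpv1 pools. Cpe was at 119 ± 35.4 CPM per kb in the Sst pools and 69.5 ± 14.0 in the Trpv1 pools, and Chgb at 84.3 ± 27.1 in the Sst pools and 101 ± 56.7 in the Trpv1 pools. Cpe exceeded Chgb in 4 of 4 Sst pools but in 1 of 4 Trpv1 pools, and the ranges of these neighbours overlapped, as did those of Scg3 and Cpe.

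A gap then separated these 4 genes from the rest, Chgb standing above Scg5 in all 8 libraries with no overlap. Scg5 (17.1 CPM per kb over all 8 libraries), Pcsk2 (14.3), Vgf (10.3), Chga (8.57) and Pam (7.44) followed in that order, and each overlapped the next. Pcsk1 was lowest at 3.804 CPM per kb, below Pam in all 8 libraries. With the longest transcript in place of the union of exons Pam moved to position 7, at 21.6 CPM per kb, Pcsk2 moved to position 5 and Vgf to position 9. The first 4 positions and the last did not move. In reads, Scg2 alone took 47.5% ± 4.91 of the counts of the 10 genes in the Sst pools and 41.7% ± 3.15 in the Trpv1 pools.

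**Figure D3:**
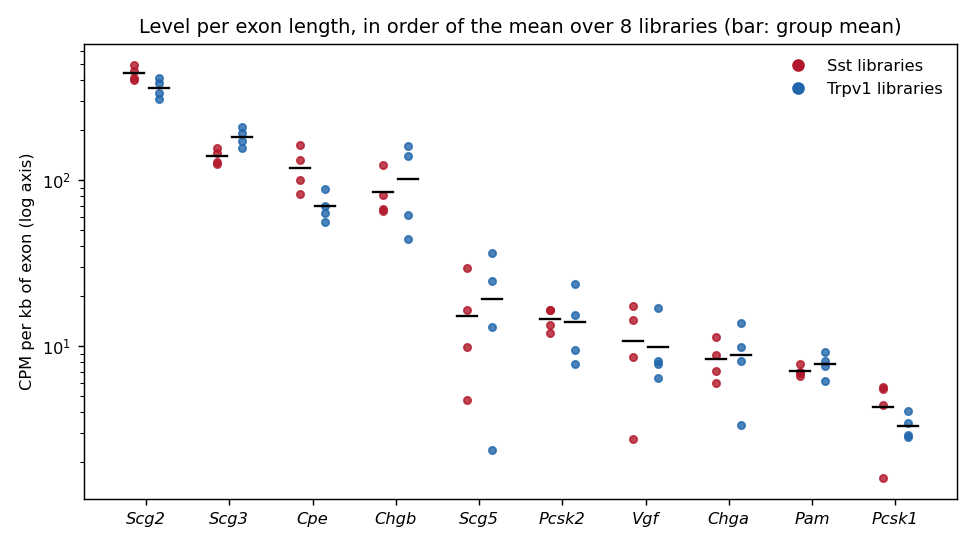
CPM per kb of exon (log axis) of the 10 genes, ordered by the mean over 8 libraries, with Sst pools in red left of Trpv1 pools in blue and a bar for each group mean. Scg2 lies highest in both groups, Scg3, Cpe and Chgb follow, and the other 6 lie lower by a visible gap, with Pcsk1 last.

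Ratios within a library do not depend on how libraries are scaled, and 4 were tested: the 2 convertases, convertase 2 to its chaperone, convertase 1 to its inhibitor proSAAS (Pcsk1n) and the 2 chromogranins. Pcsk1 had 0.245, 0.189, 0.291 and 0.0951 counts per count of Pcsk2 in the Sst pools and 0.305, 0.311, 0.131 and 0.0877 in the Trpv1 pools. Replicate 4 was the lowest of each group, and the groups covered the same range. The log2 ratio was −2.40 ± 0.71 in the Sst pools and −2.46 ± 0.91 in the Trpv1 pools, a difference of 0.06 (exact permutation test, two-sided, n = 4 each, p = 0.914, adjusted p over 4 ratios 0.914).

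Pcsk2 to Scg5 ran from 2.27 to 17.6 counts per count in the Sst and from 1.94 to 16.8 in the Trpv1 pools, again nearly the same range. Its log2 ratio differed by 0.25 between groups (exact permutation p = 0.771, adjusted p = 0.914). Pcsk1 to Pcsk1n had a log2 ratio of −0.40 ± 0.62 in the Sst pools and −0.81 ± 0.37 in the Trpv1 pools (difference 0.41, exact permutation p = 0.343, adjusted p = 0.914). Chga to Chgb had a log2 ratio of −3.32 ± 0.75 in the Sst pools and −3.49 ± 0.79 in the Trpv1 pools (difference 0.17, exact permutation p = 0.8286, adjusted p = 0.914). Shifts that the exact test could not reject at 0.05 ran from −1.70 to 1.72 on the log2 scale for the convertases, and from −2.86 to 3.17 for Pcsk2 to Scg5. Differences within these ranges, in either direction, were therefore not excluded with 4 libraries a group, for which the smallest p is 0.0286.

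**Figure D4:**
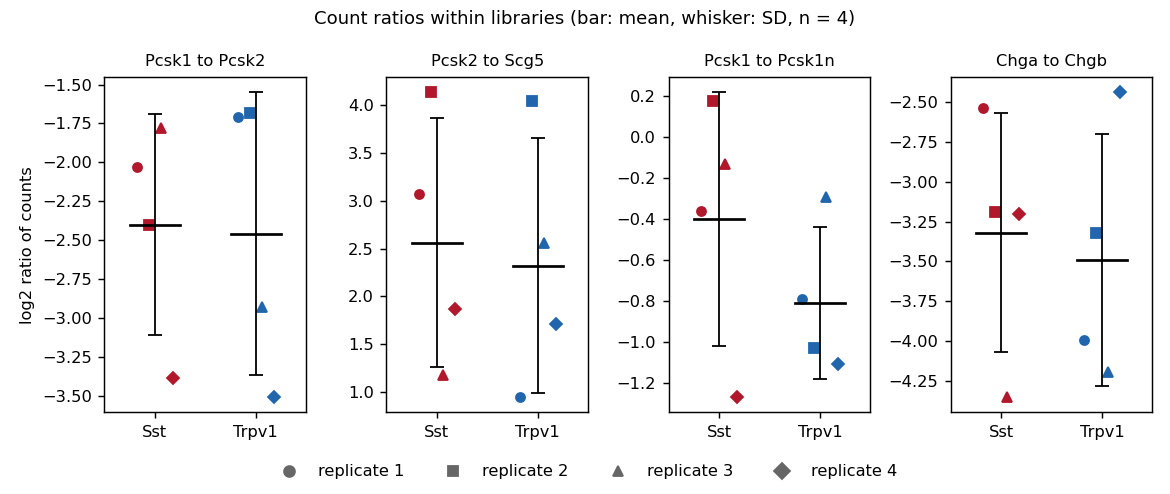
Log2 ratio of counts within each library for 4 pairs of genes, with Sst pools in red left of Trpv1 pools in blue, bars for means and whiskers for SD (n = 4 each). In each panel the groups overlap, and for Pcsk1 to Pcsk2 the lowest library of both groups is replicate 4, at −3.39 in the Sst and −3.51 in the Trpv1 group.

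For the 3 genes with the smallest p, the tested genes with the nearest profile were sought among the 7203 genes whose log2 CPM averaged 3 or more, by the root mean square difference of centred log2 CPM over the 8 libraries. Among the nearest to Cpe were Bag5, a chaperone cofactor (0.181), and Cdk11b, a cyclin-dependent kinase (0.189), against a median of 0.75 over all these genes. Scg3 lay nearest to Rtn3, a reticulon of the endoplasmic reticulum (0.083), Rdx, the membrane linker radixin (0.103), and Eea1, an early endosome tether (0.104). Nearest to Scg2 were Cox5b, a subunit of cytochrome c oxidase (0.085), Jagn1, a protein of the endoplasmic reticulum (0.089), and Hspa8, a constitutive chaperone (0.103). These 8 genes did not pass the test between groups (edgeR adjusted p from 0.121 to 0.760). The profiles include the difference between groups, so this follows in part from how the genes were chosen. Within the 10 genes, the profiles of Scg2 and Pam lay closest (0.23) and those of Scg5 and Vgf farthest apart (1.95).

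Peptide precursors are cargo of these vesicles, and Scg2 and Vgf, kept among the 10 genes, encode precursors too. The separately listed precursors had a median log2 fold change of −0.93. Their median size regardless of sign was 1.76, where that of the 10 genes was 0.28 and that of all genes tested 0.53. Of 27 listed precursor genes 14 were tested, of which 6 were lower in the Sst pools (42.9% of the 14 called, against 6.35% of all genes), 0 were higher and 8 did not pass. At an unadjusted p under 0.05 there were 3 toward the Sst pools, Cck, Sst and Nppb, named after their values were seen. Cck, the cholecystokinin precursor, was called higher with no filter (edgeR adjusted p = 0.0282), with DESeq2 (adjusted p = 0.0193) and without Sst replicate 3 (edgeR adjusted p = 0.0366). Sst was called higher without Sst replicate 2 (1.35, edgeR adjusted p = 0.0166) and without Trpv1 replicate 4 (1.49, 0.0206). Nppb, a natriuretic peptide precursor, was not called in any of 19 alternatives (1.15, edgeR adjusted p = 0.129). Adcyap1, the precursor of PACAP, averaged 2.81 ± 2.23 CPM in the Sst pools and 233 ± 28.1 CPM in the Trpv1 pools (log2 fold change −6.43, SE 0.404, edgeR adjusted p = 1.78e-10). Calca, which encodes calcitonin gene-related peptide, had a log2 fold change of −5.00 (edgeR adjusted p = 1.78e-10), Tac1, the substance P precursor, one of −4.28 (3.14e-09) and Cartpt, the CART precursor, one of −5.83 (1.26e-05). Without Sst replicate 1 the value of Cartpt was −8.44. Gal, the galanin precursor, had 2 counts in all Sst pools together and 1217 in the Trpv1 pools. Calcb, a close paralog of Calca with which it can share reads, had a log2 fold change of −2.38 (edgeR adjusted p = 0.00483), and −3.36 without Sst replicate 2. DESeq2 did not call Calcb (adjusted p = 0.184), and the earlier quasi-likelihood method of edgeR did not either (0.164). Pnoc, Npy, Vip, Iapp and Nppc had 0 counts in all 8 libraries, which allows up to 0.0393 CPM over all of them, from counting error alone.

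Set side by side, the 10 granin and processing genes summed to 2224 to 2422 CPM in the Sst pools and 1920 to 2333 CPM in the Trpv1 pools. The listed precursors, which do not include Scg2 and Vgf, summed to 398 to 640 CPM in the Sst pools and 2057 to 2968 CPM in the Trpv1 pools. Per precursor count there were 4.89, 5.25, 6.09 and 3.60 counts of the 10 genes in Sst replicates 1 to 4, against 0.942, 1.13, 0.923 and 0.758 in Trpv1 replicates 1 to 4. These values do not overlap between the groups, and they moved with the precursors, since the sums of the 10 genes overlapped. In the Trpv1 pools together Calca had 42054 counts, Tac1 14448 and Adcyap1 8159, against 1505, 857 and 110 in the Sst pools. All were called lower above, so the separation of the ratio is not a result apart from theirs. Without Pomc, which is also a pituitary gene, the lowest Sst value was 3.60 and the highest Trpv1 value 1.17. The ratio is given as a description, with no test.

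Some genes of the vesicle membrane and of release were higher and others lower. The list holds 23 genes, 20 of them tested, of which 5 were lower in the Sst pools, 2 were higher and 13 did not pass (35% of the 20 called, against 6.35% of all genes). Rab27b, a small GTPase that docks secretory vesicles, averaged 7.15 ± 4.95 CPM in the Sst pools and 75.8 ± 31.4 CPM in the Trpv1 pools (log2 fold change −3.40, SE 0.480, edgeR adjusted p = 4.78e-05). Cadps2, a priming factor of dense-core vesicles, was higher, at 133 ± 62.0 CPM in the Sst pools and 15.6 ± 10.5 CPM in the Trpv1 pools (3.14, edgeR adjusted p = 9.58e-05). Its paralog Cadps, a gene named here after its values were seen, stood at 511 ± 83.2 CPM in the Sst pools and 678 ± 114 CPM in the Trpv1 pools and did not pass (−0.41, edgeR adjusted p = 0.221). Rph3a, a Rab3 effector, was higher (1.37, edgeR adjusted p = 0.00300), and was not called with Xist as a covariate (1.01, 0.0918).

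Syt4, a synaptotagmin of peptide vesicles, was lower in the Sst pools (−1.42, edgeR adjusted p = 0.000106), as were Ptprn2, a phosphatase-like protein of the vesicle membrane (−1.82, edgeR adjusted p = 0.0147), and Syt7, a calcium sensor of slow release (−1.43, edgeR adjusted p = 0.0243). Rab27a, outside the rule for naming and named after its values were seen, was the fifth lower gene (−1.41, edgeR adjusted p = 0.0492). The 5 lower genes became 2 without Trpv1 replicate 2, and 3 when Sst replicate 1, Sst replicate 2, Sst replicate 4, Trpv1 replicate 3 or Trpv1 replicate 4 was left out. In the 4 libraries with at most 1 count of Gh and of Prl, 0 genes of this list were called in either direction, where 52 genes were called in all. Ptprn2 was not called when Sst replicate 1, Sst replicate 2, Trpv1 replicate 2 or Trpv1 replicate 4 was left out (edgeR adjusted p between 0.0520 and 0.0584). Syt7 was not called when Sst replicate 2, Sst replicate 4 or any of Trpv1 replicates 2, 3 and 4 was left out (0.0505 to 0.0705). Leaving out Sst replicates 1, 3 or 4 or Trpv1 replicates 2, 3 or 4 ended the call of Rab27a, whose value was −2.05 without Sst replicate 2. With Xist as a covariate Ptprn2 (−1.78, edgeR adjusted p = 0.0701) and Rab27a (−1.51, 0.109) were not called, while Rab27b, Syt4, Syt7 and Cadps2 were. The calls of Cadps2, Rph3a, Rab27b and Syt4 were kept in every fit that left out 1 library.

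Other processing enzymes and granin-like genes had log2 fold changes from −4.86 to 2.45, with a median size of 0.71 regardless of sign, against 0.53 over all genes tested. Of 18 listed genes 14 were tested, of which 2 were lower in the Sst pools (14.3% of the 14 called, against 6.35% of all genes), 0 were higher and 12 did not pass. Ctsl, cathepsin L, which also processes peptide precursors, averaged 447 ± 62.8 CPM in the Sst pools and 721 ± 154.5 CPM in the Trpv1 pools (log2 fold change −0.69, SE 0.193, edgeR adjusted p = 0.0316). Cpm, carboxypeptidase M of the cell surface, had 9 counts in the Sst and 233 in the Trpv1 pools (−4.86, edgeR adjusted p = 0.0217). Neither was called when Sst replicate 1, 2 or 3 or Trpv1 replicate 2 was left out, nor Ctsl when Trpv1 replicate 1 or 4 was (edgeR adjusted p between 0.0559 and 0.118 over the 2 genes). The value of Cpm was −4.19 without Trpv1 replicate 2. With Xist as a covariate Cpm (−4.40, edgeR adjusted p = 0.135) and Ctsl (−0.64, 0.147) were not called. Pcsk1n, the convertase 1 inhibitor, stood at 29.5 ± 9.42 CPM in the Sst pools and 33.5 ± 9.58 CPM in the Trpv1 pools and did not pass (−0.19, edgeR adjusted p = 0.846).

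Vesicle biogenesis and peptide degradation held no called gene in edgeR. Of 24 listed genes of vesicle biogenesis and sorting, 21 were tested and 0 passed, against 6.35% of all genes tested. There were 2 at an unadjusted p under 0.05, against 20.5% of all genes tested, and the median log2 fold change was 0.11. For 3 of the 21 the CPM of the groups did not overlap, against 11.1% of all genes tested. Rab2a, a GTPase of dense-core vesicle maturation in Caenorhabditis elegans and its most abundant tested gene, stood at 379 ± 85.5 CPM in the Sst pools and 376 ± 95.1 CPM in the Trpv1 pools. Of 10 listed peptidases that degrade free peptides, 9 were tested and 0 passed, with 1 at an unadjusted p under 0.05. With a share of 6.35% over all genes, few calls would fall on lists of 21 and 9 genes in any case. The most abundant of them, Lnpep, stood at 295 ± 47.0 CPM in the Sst pools and 341 ± 89.6 CPM in the Trpv1 pools. DESeq2 and limma voom also called 0 genes of these 2 lists.

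**Figure D5:**
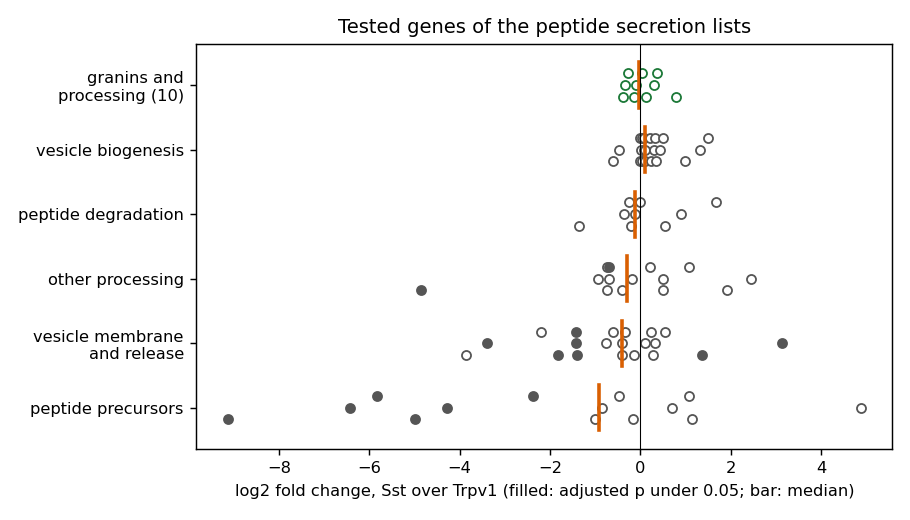
Log2 fold change of Sst over Trpv1 for each tested gene of 6 lists, filled where the adjusted p is under 0.05, with a bar at the median of each list. The 10 granin and processing genes stay within 1 log2 unit of 0 and are all open, while precursors and release genes spread farther, with medians of −0.93 and −0.41.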

How the data were processed

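RNA of hand-picked, pooled neurons was amplified with the Ovation system and sequenced from Nextera XT libraries, per the labels' protocols. The authors deposited raw counts of reads per gene symbol, made with bcl2fastq 2.17, Trimmomatic 0.33 and featureCounts on GRCm38, per the submitters' processing notes. Aligner, annotation and strand use: not given in the sources used here. Column names gave the samples.

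Counts were scaled by TMM, filtered with filterByExpr (minimum count 10) and tested with the newer quasi-likelihood method of edgeR 4.0.16 (R 4.3.3), with robust estimates, group as the sole term, two-sided and Benjamini-Hochberg adjustment over 11828 genes. SE and 95% intervals were derived from the F statistic. CPM are TMM-scaled, with a prior count of 2 for logs. Ratios used counts plus 0.5 and exact permutation. Alternatives used limma 3.58.1, DESeq2 1.42.0, other scaling, filters, covariates and fewer libraries. Intervals and floors cover counting or sampling error only, since reads had no molecular identifiers.

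The 10 genes and all gene lists were chosen with earlier results of these data known. Named genes were the 10, both genes of each ratio, up to 6 called genes with the smallest p of each other pathway list or its most abundant tested gene, and the 3 nearest genes of the 3 members with the smallest p, of which 1 is not reported here. The listed symbols Eipr1 and Vps50 matched no row. The analysis was tested on simulated data for this comparison, on 11291 genes: it recovered 5.21% of 96 genes with a simulated 2-fold difference and 31.9% of 91 with a 4-fold one, and 8 of 42 calls were false.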

Additional observations from a re-analysis of the deposited data

Results flagged for a closer look

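Of 28 groups of 4 libraries, from the CPM of the 10 genes and the 4 ratios, 1 held a library far from the other 3. Vgf stood at 50.6 CPM in Trpv1 replicate 2, while the other Trpv1 pools lay between 19.1 and 24.3 CPM. Chance flags about 1 in 20 such groups.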

How the results depend on the processing

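The number of the 10 genes called was 1, in place of 0, with no filter on low counts, with a filter of at least 5 CPM in 4 libraries, with DESeq2, and without Sst replicate 4 or Trpv1 replicate 2, and the gene was Cpe each time; over the fits without 1 library it ran from 0 to 1 higher and was 0 lower. Calls over all genes were 751, and 493 with the earlier quasi-likelihood method of edgeR (chosen after seeing the data), 435 with a term for Xist, 305 in the 6 libraries with Xist, 52 in the 4 libraries with at most 1 count of Gh and Prl, and 452 to 747 without 1 library. The fits of fewer libraries have fewer samples; otherwise the cause was not tested.

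Signs turned for 6 genes, none called; without 1 library Scg5 ran from −0.87 to 0.17, Chga from −0.35 to 0.21, Chgb from −0.50 to 0.061, Vgf from −0.21 to 0.54 and Pcsk2 from −0.13 to 0.43. Chga was 0.22 with limma voom, 0.50 with the Xist term, 0.53 in the 6 libraries with Xist, 0.046 in the 4 libraries with at most 1 count of Gh and Prl, 0.061 without Sst replicate 3 and 0.21 without Trpv1 replicate 2. Chgb was 0.67, 0.69 and 0.98 under the same 3 settings for Xist and Gh and Prl, and 0.061 without Trpv1 replicate 1. Pcsk2 was −0.43, −0.40 and −0.72 there, and −0.019, −0.00049, −0.088 and −0.13 when Sst 1, Sst 2, Trpv1 1 or Trpv1 2 was left out. Vgf was −0.21, −0.014 and −0.018 without Sst replicates 1 or 2 or Trpv1 replicate 4, Scg5 was 0.17 without Trpv1 replicate 4, and Pam was 0.0033 in the 6 libraries with Xist. In that last fit and in that of 4 libraries the median over all genes was 0.07 and 0.23.

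No ratio passed under any alternative. Without 1 library the differences in log2 ratio, Sst minus Trpv1, ran from −0.29 to 0.39 for Pcsk1 to Pcsk2, −0.27 to 0.82 for Pcsk2 to Scg5, −0.092 to 0.51 for Chga to Chgb and 0.22 to 0.70 for Pcsk1 to Pcsk1n; in the 6 libraries with Xist the difference was −0.0048 for Chga to Chgb and 0.82 for Pcsk1 to Pcsk2, against 0.17 and 0.06 in all 8. Same-numbered libraries did not deviate together (correlations of −0.0296 to 0.0316), and the labels do not say that numbers mark the shared picking sessions, so a pairing by session could not be fitted. A replicate block on the numbers left 572 calls over all genes and 0 of the 10 genes; with it Ctsl was not called (−0.68, edgeR adjusted p = 0.0793) and Sst was (1.02, 0.0369). The effect of depth was not tested; the lowest count of the 10 genes was 29, for Scg5.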

Other observations

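Cpd encodes carboxypeptidase D, which shares its substrate preference with carboxypeptidase E and acts in the Golgi. It was looked at after its values were seen. It averaged 129 ± 18.3 CPM in the Sst pools and 213 ± 40.1 CPM in the Trpv1 pools (SD, n = 4 each), with no overlap between groups, opposite in sign to Cpe (log2 fold change −0.73, SE 0.232, edgeR adjusted p = 0.0641). DESeq2 and limma voom with sample quality weights called it (adjusted p = 0.0236 and 0.0382), and its adjusted p lay between 0.0236 and 0.327 in 19 alternatives.

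Cck had 331 counts in the Sst pools together, against 9 in the Trpv1 pools (edgeR adjusted p = 0.0554). Of the 331 counts, 235 were from Sst replicate 4, and the adjusted p lay between 0.0193 and 0.591 in 18 alternatives.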
